A study of Mus musculus with 20 samples.

Results

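The 43 genes described here lie on mouse chromosome 12 on both sides of Arg2, the gene disrupted in the knockout mice of this series. They were taken by symbol from a list of genes within about 6 Mb of Arg2, with Arg2 itself left out, and they are 43 of the 24062 genes in the count tables. All 43 passed the filter on low counts, as did 61 further genes within 6 Mb that the list does not hold. How the list was picked among them was not stated, and it was chosen with earlier results of this series known. Arg2 spans chr12:79130777-79156301 on the plus strand of GRCm38, 24 members lie before it and 19 after it, and the farthest are Ppp2r5e, 3.53 Mb before, and Numb, 4.64 Mb after.

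RNA-seq counts came from whole lung of wild type (Arg2+/+) and knockout (Arg2-/-) mice, all of the mixed strain C57/129 and 8 to 10 weeks of age. For 28 days the animals breathed either 21% oxygen (room air) or 10% oxygen (hypoxia), which gave 4 groups of 4 samples, and the labels name both sexes. Sex was not a term in the fit, and its part in the differences between genotypes was not tested. Arg2 encodes the mitochondrial arginase, an enzyme that competes with nitric oxide synthases for arginine. Where the deletion lies, how the colony was bred, whether wild types were littermates and which strain the disrupted allele came from were not given in the sources used here.

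A disrupted gene is usually made in embryonic stem cells of a given strain and then bred onto another, so it travels with a stretch of its original chromosome. Genes in that stretch can carry strain variants that change their level in every knockout animal, whatever the treatment, and such neighbours are called passenger genes. A linked variant and the loss of Arg2 are inherited together, so in a comparison of these genotypes their effects cannot be told apart. The comparison asked here is therefore which neighbours of Arg2 differed between genotypes at both oxygen levels.

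Between 9531270 reads (wild type room air 3) and 63331530 (knockout room air 3) fell in genes. Wild type room air 3 stood apart, with 25.4% of its gene and non-gene reads in genes against 35.5% or more in every other sample. Wild type hypoxia 4 stood apart as well, with 19.9% of its gene reads on Rn45s, the precursor of ribosomal RNA, against 0.518% to 1.33% in the other samples. Arg2 had 7.3 to 11.8 CPM (counts scaled to the size of each library) in the wild type samples and 4.58 to 7.78 in the knockout samples in room air, with knockout room air 4 inside the wild type range. In hypoxia Arg2 had 6.33 to 11.7 CPM in wild type and 3.22 to 5.37 in the knockout. At an adjusted p under 0.05 (edgeR), Arg2 itself did not pass the test between genotypes in room air, where 2 of 30 alternative analyses called it. In hypoxia it passed, also in all 30 alternatives. The summed level of 8 lung epithelial and endothelial markers was 33600 to 43100 CPM across all samples. Markers of other organs were uneven. Skeletal muscle genes stood out in wild type room air 1 (summed level 1080 CPM), thymocyte genes in knockout room air 3 and 4 (up to 70.4) and pancreatic genes in knockout hypoxia 1 (901), and an alternative analysis left these 4 samples out. Beyond them, pancreatic genes were at 4.04 CPM or more in every knockout hypoxia sample, with a median of 40.7, against at most 3.97 in any sample of the other groups. Heart muscle genes reached 763 CPM in knockout room air, where the median was 293, and the part of any of these tissues in the members' values was not tested.

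Most of the neighbours were well expressed in lung, so that their differences could be measured. Over all samples the member means ran from 0.901 CPM for Dpf3, a subunit of BAF chromatin remodelling complexes, to 881 CPM for Akap5, an anchor of protein kinase A, with a median of 40.5 CPM. Per kilobase of exon, Akap5 stood first at 129 CPM, followed by Vti1b, an endosomal SNARE, at 49.2 and Numb, an inhibitor of Notch signalling, at 39.6. Dpf3 at 0.213 CPM per kilobase and Wdr89 at 0.603 stood last. In 7 members the mean was under 5 CPM, and the smallest count of any member in a sample was 4.

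Mthfd1 carried the clearest difference. It encodes the cytosolic folate enzyme that interconverts one-carbon units for purine and thymidylate synthesis, and it lies 2.81 Mb before Arg2 at chr12:76255298-76319803. In room air it was measured at 137, 135, 135 and 143 CPM in the wild type samples. The knockout samples had 94.8, 97.9, 93.3 and 102 CPM. In hypoxia the wild type samples had 168, 193, 177 and 144 CPM and the knockout samples 94.0, 91.7, 83.0 and 89.6. Every knockout sample was below every wild type sample, and the groups did not overlap at either oxygen level.

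In the knockout, Mthfd1 averaged 70.6% of its wild type level in room air and 52.6% of it in hypoxia. On the log2 scale the fold change was -0.50 ± 0.08 (SE) in room air (edgeR, adjusted p = 0.0273) and -0.93 ± 0.08 in hypoxia (adjusted p = 2.57e-06). Averaged over both oxygen levels it was -0.71 ± 0.06 (adjusted p = 1.15e-06), which ranked 2 by p among all genes tested. The effect in hypoxia minus that in room air was -0.42 ± 0.11, which did not pass the test over all genes (adjusted p = 0.0914) but was called by DESeq2. Hypoxia raised Mthfd1 in wild type by 0.31 ± 0.08 (adjusted p = 0.0288), a call lost in 8 of 30 alternatives. In the knockout the same change was -0.12 ± 0.08 (adjusted p = 0.374).

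The room air call of Mthfd1 was lost in 11 of 30 alternative analyses, each of which left out samples or groups, with log2 fold changes between -0.53 and -0.38 over all of them. The hypoxia call held in all 30, with -1.0 to -0.80, and the averaged call in the 29 that could give it, with -0.74 to -0.60. An annotated antisense gene, Gm34868, overlaps the span of Mthfd1, introns included, over 19090 bases and has no line in the count tables. The strand setting of the counting was not given in the sources used here, so reads of the antisense gene cannot be told from those of Mthfd1.

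**Figure D1:**
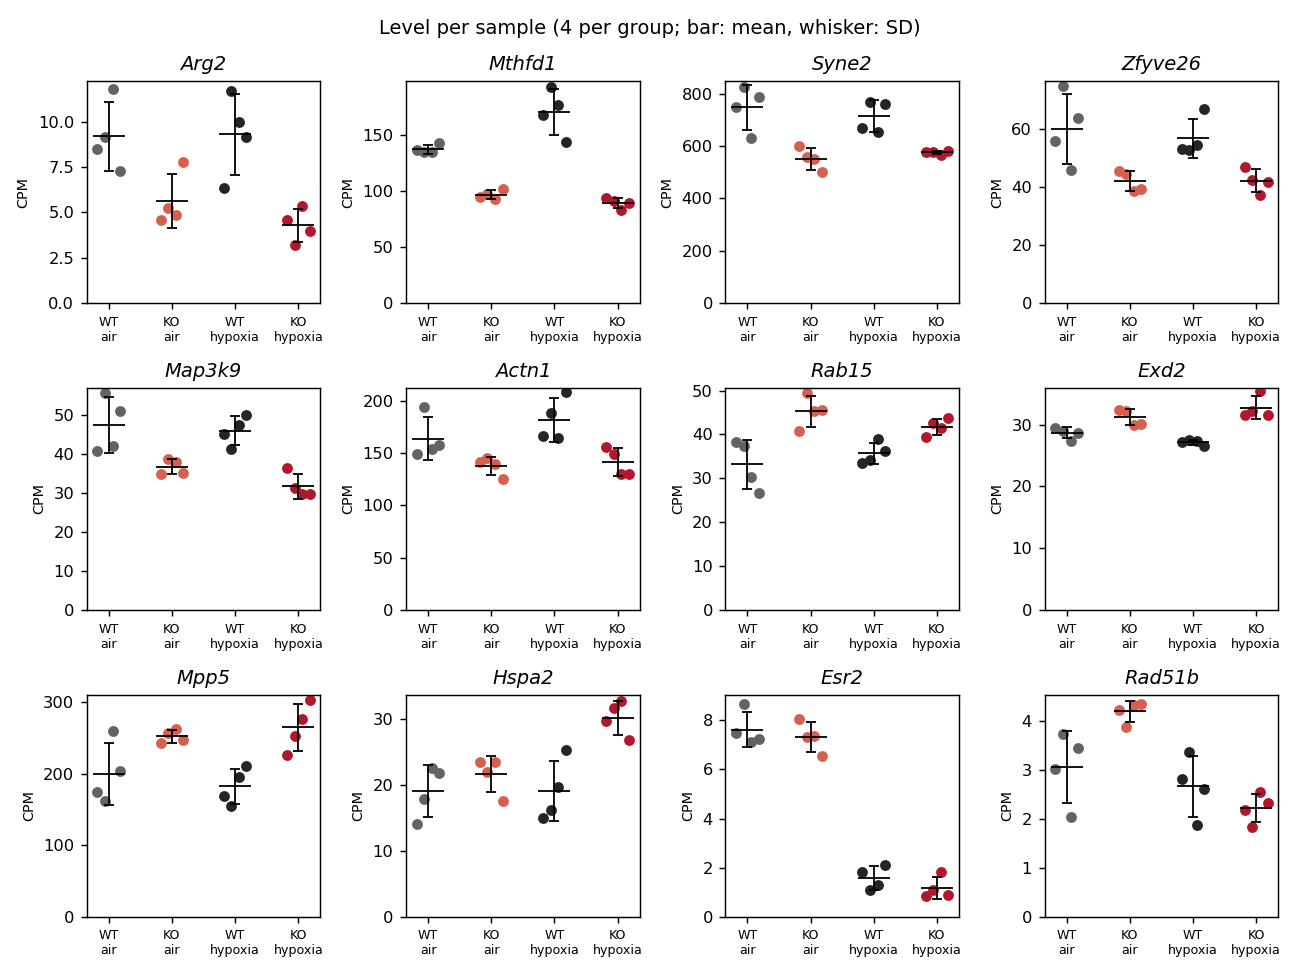
CPM of Arg2 and 11 of its neighbours in each sample (points), with the mean (bar) and SD (whisker) of 4 samples per group, on axes that start at 0. WT is wild type, KO is knockout and air is room air; the Mthfd1 knockout points, 83.0 to 102 CPM, sit below all wild type points, and Esr2 is separated by oxygen and not by genotype.

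The sequence before the Mthfd1 start is shown as a base for comparison with the other neighbours whose groups did not overlap. RefSeq promoters (GRCm38.p6) were found for 38 of the 43 members, the exceptions being Mpp5, Exd2, Smoc1, Ppp2r5e and Plekhg3. Capitals mark GGGCGG (the core of a GC box) and CCAAT on either strand, each as read along the gene's strand. The Mthfd1 window, 250 bases at chr12:76254982-76255231 on the plus strand, held 1 GC box and 1 CCAAT box and had a GC content of 59.2%.
Mthfd1: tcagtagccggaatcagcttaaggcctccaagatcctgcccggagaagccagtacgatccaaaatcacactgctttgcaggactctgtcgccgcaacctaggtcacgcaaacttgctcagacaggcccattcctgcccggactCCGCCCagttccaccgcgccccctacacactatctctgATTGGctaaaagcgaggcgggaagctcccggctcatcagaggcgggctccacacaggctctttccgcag

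Over all 32851 RefSeq promoter windows of this length, GGGCGG was present in 32.7% and CCAAT in 33.8%. By gene, 25 of the 38 members had GGGCGG in at least 1 of their windows and 18 had CCAAT, against 35.4% and 37.5% of all genes with a RefSeq window. Those genes were not limited to genes expressed in lung, while all members passed the filter on low counts, so the shares are not of like genes. Also searched on both strands were CACGTG (an E-box), in 4 members and 6.86% of genes, its shorter core ACGTG, in 7 and 18.5%, and GGTCA (a core letter group of nuclear receptor sites), in 17 and 38.4%. ACGTG is contained in CACGTG, so these 2 searches overlap. A match describes letters in the window and nothing about a factor.

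In room air, Mthfd1 was the only member of the 43 called between genotypes, that is with an adjusted p under 0.05, where 0.0761% of all genes were called. At an unadjusted p under 0.05 there were 13 members against 21.6% of all genes. The members' log2 fold changes ran from -0.52 for Zfyve26 to 0.44 for Rab15, and their median size without sign was 0.17 against 0.16 over all genes. The next smallest adjusted p belonged to Syne2 (0.0528). DESeq2 called 7 members (7.1% of all genes) and limma voom 8 (6.17%). Leaving out wild type room air 3, edgeR called 11 members against 13.8% of all genes. Once the 4 samples carrying markers of other organs were left out, edgeR called 0 members (0.0% of all genes), with 11 at an unadjusted p under 0.05 (11.6% of all genes).

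In hypoxia, 13 of the 43 members were called between genotypes, against 23.0% of all genes. Of these 6 were higher in the knockout (11% of all genes) and 7 were lower (12.1%). The higher members were Hspa2, Mpp5, Vti1b, Exd2, Synj2bp and Med6, and the lower ones Mthfd1, Zfyve26, Actn1, Map3k9, Numb, Syne2 and Fntb. Without wild type hypoxia 4, 7 members were called in hypoxia, below the 17.7% of all genes, and without knockout hypoxia 4, 8 were (13.2% of all genes). For the effect averaged over both oxygen levels, 17 members were called against 28.6% of all genes, with 7 of them higher (13.6%) and 10 lower (14.9%). That count was 13 without wild type hypoxia 4 (25.3% of all genes). The median size of the averaged effect without sign was 0.17 in the members and 0.18 over all genes, so the members' changes were of the size common in this comparison. In hypoxia that median was 0.23 in both. For the difference of the genotype effect between oxygen levels, edgeR called 0 members against 0.501% of all genes, with 4 at an unadjusted p under 0.05 (14.1%). For the same difference DESeq2 called Mthfd1 alone of the members (3.07% of all genes) and limma voom called 0.

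Cell type markers moved in the same comparison. The summed level of 6 B cell markers was 22.0 to 37.7 CPM in knockout hypoxia against 46.8 to 90.7 in wild type hypoxia, all 6 being called lower, and that of 6 T cell markers was 9.38 to 19.5 against 28.0 to 30.7, with 4 called lower. No marker of either list was at 0 in all samples. Of the 8 lung markers 4 were called in hypoxia. Higher in the knockout were the endothelial genes Pecam1 (0.41 on the log2 scale, adjusted p = 0.00146) and Cldn5 (0.48, adjusted p = 0.0208) and the transcription factor Foxf1 (0.47, adjusted p = 0.00883). The surfactant gene Sftpb was lower (-0.29, adjusted p = 0.0348). The same 4 were called for the averaged effect. In whole lung, fewer cells of a type and less RNA per cell cannot be told apart, and the part of these cells in the members' differences was not tested. Without the 4 samples with organ markers, 11 members were called in hypoxia (19.4% of all genes) and 13 for the averaged effect (14.9%). Without wild type room air 3 these counts were 13 (27.3%) and 20 (34.3%).

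**Figure D2:**
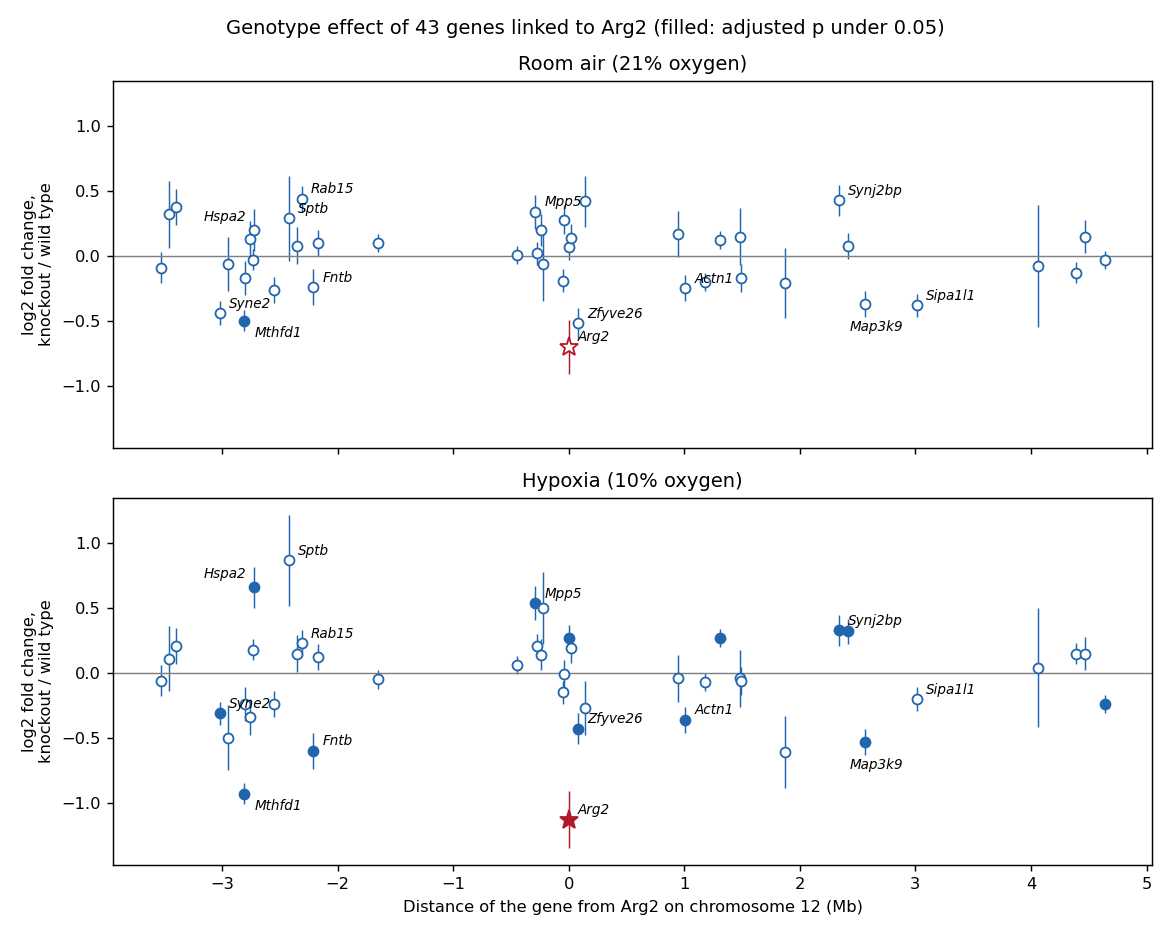
Log2 fold change of knockout over wild type (with its SE) for the 43 members and Arg2, by distance from Arg2 in Mb, in room air and in hypoxia; filled symbols have an adjusted p under 0.05. In room air Mthfd1 alone is filled, in hypoxia 13 members are, and filled and open genes lie side by side along the whole stretch.

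Beside Mthfd1, Syne2 was lower in the knockout. It encodes nesprin-2, a giant protein that ties the nuclear envelope to the cytoskeleton, and lies 3.02 Mb before Arg2. Its levels were 748, 825, 630 and 787 CPM in wild type room air against 601, 557, 549 and 500 in the knockout. In hypoxia the wild type samples had 670, 770, 655 and 762 CPM and the knockout samples 579, 576, 567 and 580. The groups did not overlap at either level. The log2 fold change was -0.44 ± 0.09 in room air (adjusted p = 0.0528), -0.31 ± 0.09 in hypoxia (adjusted p = 0.0169) and -0.38 ± 0.06 averaged (adjusted p = 0.000598).

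Zfyve26, which encodes spastizin, a protein of lysosome renewal, lies 0.08 Mb after Arg2. Its wild type samples had 55.9, 74.7, 46.0 and 63.8 CPM in room air and its knockout samples 45.5, 44.4, 38.8 and 39.2. In hypoxia they had 53.0, 52.9, 54.5 and 66.8 against 47.0, 42.6, 37.2 and 41.9. The groups were close but did not overlap in room air, where wild type room air 3 was the lowest wild type sample. The log2 fold change was -0.52 ± 0.12 in room air (adjusted p = 0.0631), -0.43 ± 0.12 in hypoxia (adjusted p = 0.0178) and -0.48 ± 0.09 averaged (adjusted p = 0.00103). The hypoxia call was lost without wild type hypoxia 4 or knockout hypoxia 3, with an adjusted p of up to 0.0629.

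Map3k9 encodes a mixed lineage kinase upstream of JNK and lies 2.56 Mb after Arg2. It had 40.9, 55.7, 42.1 and 51.1 CPM in wild type room air and 35.0, 38.9, 37.9 and 35.3 in knockout room air. In hypoxia the wild type samples had 45.2, 41.4, 47.5 and 50.2 CPM and the knockout samples 36.5, 31.3, 29.7 and 29.8. No knockout sample reached a wild type sample at the same oxygen level. The log2 fold change was -0.37 ± 0.10 in room air (adjusted p = 0.0704), -0.53 ± 0.10 in hypoxia (adjusted p = 0.00196) and -0.45 ± 0.07 averaged (adjusted p = 0.000512).

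Actn1, which encodes the actin cross-linker alpha-actinin-1, lies 1.01 Mb after Arg2. Its wild type samples had 149, 194, 154 and 158 CPM in room air and its knockout samples 141, 145, 139 and 125. In hypoxia they had 166, 188, 164 and 208 against 156, 149, 130 and 130. In room air the highest knockout sample, at 145 CPM, lay just below the lowest wild type sample, at 149, and the groups overlapped at neither level. The log2 fold change in room air was -0.25 ± 0.10 (adjusted p = 0.148) and was called in 0 of 30 alternatives. The averaged log2 fold change was -0.31 ± 0.07 (adjusted p = 0.00417), and the value in hypoxia -0.36 ± 0.10 (adjusted p = 0.0161) lost its call without wild type hypoxia 4, knockout hypoxia 3 or knockout hypoxia 4, and with the GC trend removed.

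The windows before the RefSeq starts of these lower members are shown because their groups did not overlap at either oxygen level. The Syne2 RefSeq start lies 184 bases after the start in GENCODE, so most of its window falls within the gene as GENCODE places it. All are 250 bases of GRCm38.p6 from RefSeq, read along the gene's strand, with GGGCGG and CCAAT on either strand in capitals. Syne2 is chr12:75818068-75818317 on the plus strand, and on the minus strand Zfyve26 is chr12:79296283-79296532, Map3k9 is chr12:81781171-81781420 and Actn1 is chr12:80260364-80260613.
Syne2: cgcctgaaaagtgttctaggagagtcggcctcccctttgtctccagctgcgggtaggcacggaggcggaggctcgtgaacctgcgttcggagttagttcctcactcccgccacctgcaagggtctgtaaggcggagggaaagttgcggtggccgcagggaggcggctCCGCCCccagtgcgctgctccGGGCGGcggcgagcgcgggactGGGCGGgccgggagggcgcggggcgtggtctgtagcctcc
Zfyve26: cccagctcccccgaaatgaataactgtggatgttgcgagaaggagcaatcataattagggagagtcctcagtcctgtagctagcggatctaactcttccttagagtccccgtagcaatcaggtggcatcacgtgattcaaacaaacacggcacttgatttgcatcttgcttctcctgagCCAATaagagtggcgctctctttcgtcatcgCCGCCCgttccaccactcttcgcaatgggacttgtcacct
Map3k9: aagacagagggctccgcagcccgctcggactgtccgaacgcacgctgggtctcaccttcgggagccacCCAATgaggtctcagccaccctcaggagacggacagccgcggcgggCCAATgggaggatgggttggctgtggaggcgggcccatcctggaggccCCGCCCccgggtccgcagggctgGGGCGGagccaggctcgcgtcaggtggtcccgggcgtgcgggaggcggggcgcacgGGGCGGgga
Actn1: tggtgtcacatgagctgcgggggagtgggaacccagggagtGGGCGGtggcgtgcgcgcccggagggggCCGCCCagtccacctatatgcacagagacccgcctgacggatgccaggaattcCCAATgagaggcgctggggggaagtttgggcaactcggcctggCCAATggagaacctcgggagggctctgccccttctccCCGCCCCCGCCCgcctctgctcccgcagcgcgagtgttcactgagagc

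Each of the 4 windows held GGGCGG on at least 1 strand, with 3 matches in Syne2, 1 in Zfyve26, 3 in Map3k9 and 4 in Actn1. CCAAT had 1 match in Zfyve26, 2 in Map3k9, 2 in Actn1 and 0 in Syne2. Zfyve26 also held the E-box CACGTG once, and the windows of Mthfd1, Syne2, Map3k9 and Actn1 did not. Their GC content was 70% for Syne2, 50.8% for Zfyve26, 74% for Map3k9 and 68.4% for Actn1.

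The other members called lower overlapped between genotypes at 1 oxygen level or both. Fntb, the beta subunit of protein farnesyltransferase, had 11.8, 12, 10.8 and 13.2 CPM in wild type hypoxia and 8.88, 7.31, 6.84 and 8.41 in knockout hypoxia. Its groups did not overlap in hypoxia, where the log2 fold change was -0.60 ± 0.14 (adjusted p = 0.00641), but they did in room air (-0.24 ± 0.14, adjusted p = 0.324). Its hypoxia call held in all 30 alternatives. The span of Fntb, introns included, shares 17592 bases on the same strand with Churc1, a zinc finger gene, and 24949 bases on the opposite strand with Rab15. The overlap of exons was not measured, so whether its count is affected is not known. Churc1 itself was not called (averaged log2 fold change 0.11 ± 0.10).

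Sipa1l1 encodes an activator of the GTPase of Rap proteins. Its wild type samples had 131, 175, 138 and 142 CPM in room air against 118, 115, 109 and 108 in the knockout, without overlap, and in hypoxia the 115 CPM of wild type hypoxia 3 lay within the knockout range of 110 to 123. Its averaged log2 fold change was -0.29 ± 0.06 (adjusted p = 0.00301). Plekhg3, an exchange factor for small GTPases, had -0.25 ± 0.07 (adjusted p = 0.0153), and this call was lost with the GC trend removed and without the samples with organ markers.

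Dcaf5, a substrate receptor of CUL4 ubiquitin ligases, and Numb were close to the threshold in the averaged effect. Dcaf5 had -0.14 ± 0.05 (adjusted p = 0.0490), a call that held in 8 of 29 alternatives. Numb had -0.14 ± 0.05 (adjusted p = 0.0492), which held in 7 of 29. In hypoxia Numb had 170, 177, 167 and 181 CPM in wild type against 140, 145, 162 and 141 in the knockout, without overlap (-0.24 ± 0.07, adjusted p = 0.0223). In room air its levels were 142 to 170 and 147 to 150 CPM, with the wild type range enclosing the knockout range.

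Among the members that were higher in the knockout, Rab15 and Exd2 showed no overlap between genotypes at either oxygen level. Rab15, a GTPase of endosomal recycling 2.31 Mb before Arg2, had 38.4, 37.3, 30.4 and 26.7 CPM in wild type room air against 40.8, 49.5, 45.4 and 45.6 in the knockout. In hypoxia the wild type samples had 33.6, 34.2, 38.9 and 36.3 CPM and the knockout samples 39.4, 42.6, 41.4 and 43.7. The nearest samples differed little at both levels. The log2 fold change was 0.44 ± 0.10 in room air (adjusted p = 0.0631), 0.23 ± 0.10 in hypoxia (adjusted p = 0.116) and 0.33 ± 0.07 averaged (adjusted p = 0.00294).

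The Rab15 window is shown for its contrast in direction with the lower members. It lies at chr12:76822525-76822774 on the minus strand (RefSeq, GRCm38.p6), the outermost of 4 RefSeq starts of this gene, and capitals again mark GGGCGG and CCAAT on either strand. This start lies 384 bases after the start in GENCODE, so the whole window falls within the gene as GENCODE places it. The window held 4 matches to GGGCGG and 0 to CCAAT, with a GC content of 75.2%. GGGCGG was thus present both in windows of lower members and in this one.
Rab15: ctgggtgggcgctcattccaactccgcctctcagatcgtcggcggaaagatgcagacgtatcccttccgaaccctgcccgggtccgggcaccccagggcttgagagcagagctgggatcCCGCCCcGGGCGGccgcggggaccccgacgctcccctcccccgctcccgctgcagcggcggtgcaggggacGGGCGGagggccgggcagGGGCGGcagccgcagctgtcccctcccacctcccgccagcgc

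Exd2 encodes an exonuclease of the mitochondrial surface and of DNA repair and lies 1.31 Mb after Arg2. Its levels were tight within groups, with 29.5, 29.0, 27.4 and 28.7 CPM in wild type room air and 32.4, 32.2, 30 and 30.1 in the knockout. In hypoxia they were 27.2, 27.5, 27.3 and 26.6 against 31.6, 32.2, 35.5 and 31.6. All knockout samples were above all wild type samples at the same oxygen level. The log2 fold change was 0.12 ± 0.07 in room air (adjusted p = 0.335), 0.27 ± 0.07 in hypoxia (adjusted p = 0.0118) and 0.19 ± 0.05 averaged (adjusted p = 0.00787). With the GC trend removed, the room air value was -0.01 and neither the hypoxia nor the averaged effect was called.

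Mpp5, known as Pals1, is a scaffold of the Crumbs complex that sets up apical polarity in epithelia, and it lies 0.29 Mb before Arg2. It had 174, 162, 259 and 203 CPM in wild type room air against 243, 257, 263 and 247 in the knockout, and only wild type room air 3 reached the knockout levels. In hypoxia the values were 169, 155, 195 and 210 against 226, 253, 276 and 303, without overlap. The log2 fold change was 0.34 ± 0.13 in room air (adjusted p = 0.135), 0.54 ± 0.13 in hypoxia (adjusted p = 0.00708) and 0.44 ± 0.09 averaged (adjusted p = 0.00225). The averaged value was 0.20 with the GC trend removed and was still called.

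Hspa2, a member of the HSP70 chaperone family best known from testis, had 15, 16.2, 19.7 and 25.2 CPM in wild type hypoxia and 29.6, 31.6, 32.6 and 26.8 in knockout hypoxia. These groups did not overlap (log2 fold change 0.66 ± 0.16, adjusted p = 0.00786). In room air the wild type samples had 14.1, 17.8, 22.6 and 21.7 CPM and the knockout samples 23.5, 21.9, 23.5 and 17.6, with overlap (0.20 ± 0.16, adjusted p = 0.508). The difference between the oxygen levels, 0.46 ± 0.23, did not pass the test (adjusted p = 0.368). Without the 3 samples with the lowest share of reads in genes, the hypoxia call was lost (adjusted p = 0.0527).

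Synj2bp encodes an outer membrane protein of mitochondria. It had 94.2, 80, 122 and 89.9 CPM in wild type room air against 132, 136, 133 and 117 in the knockout, where the 122 CPM of wild type room air 3 exceeded knockout room air 4. Its averaged log2 fold change was 0.38 ± 0.08 (adjusted p = 0.00301), which became 0.13 with the GC trend removed and was then not called. In hypoxia (0.33 ± 0.12, adjusted p = 0.0477) the call held in 12 of 30 alternatives. A read-through gene model, Gm20498, covers 34965 bases of Synj2bp on the same strand and has no line in the count tables.

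Sgpp1, a phosphatase of sphingosine 1-phosphate, had an averaged log2 fold change of 0.29 ± 0.10 (adjusted p = 0.0323), a call kept in 18 of 29 alternatives. Med6, a subunit of the Mediator head, had 0.20 ± 0.07 (adjusted p = 0.0484), kept in 9 of 29. Vti1b was called in hypoxia alone, with 73.2, 81.1, 80.4 and 64.4 CPM in wild type against 81.1, 87.9, 88.3 and 104 in the knockout. Wild type hypoxia 2 and knockout hypoxia 1 both round to 81.1 CPM, and before rounding the groups did not overlap (0.27 ± 0.10, adjusted p = 0.0450). Vti1b runs on the opposite strand and shares 285 bases with the end of Arg2, and its call held in 17 of 30 alternatives.

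Taking both oxygen levels, 7 of the 43 members (16.3%) had genotype groups that did not overlap in the same direction in room air and in hypoxia, namely Mthfd1, Zfyve26, Actn1, Map3k9, Syne2, Exd2 and Rab15. Over all genes tested this held for 3.39%. Of the 61 other genes within 6 Mb it held for 2 (3.28%). Within 3 Mb it held for 6 of 34 members (17.6%) and 0 of 21 other genes. Members and other genes together, it held for 9 of 104 genes within 6 Mb (8.65%) and for 6 of 55 within 3 Mb (10.9%). The members were chosen with earlier results of these data known, so their share beside that of all genes is a description and tests nothing. The 5 lower members compare with 1.84% of all genes and the 2 higher ones, Exd2 and Rab15, with 1.55%. Without wild type room air 3 it held for 9 members, with Mpp5 and Synj2bp added, and 10.6% of all genes. Without wild type hypoxia 4 it held for 7 members and 3.77% of all genes. In room air alone 10 members did not overlap against 10.4% of all genes, and in hypoxia alone 18 against 25.4%. The sign of the effect was the same at both levels in 33 of 43 members and in 68.0% of all genes.

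The room air and the hypoxia comparison share no sample. Across the 43 members their log2 fold changes had a Pearson r of 0.66 and a Spearman coefficient of 0.66. Across all 15761 genes these were 0.36 and 0.46, and without Mthfd1 the members had 0.61 and 0.64. The genes behind the second pair of values were not matched to the members for level. Genes of a sample also share its library, depth and base composition and are not independent, so these values are descriptions.

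**Figure D3:**
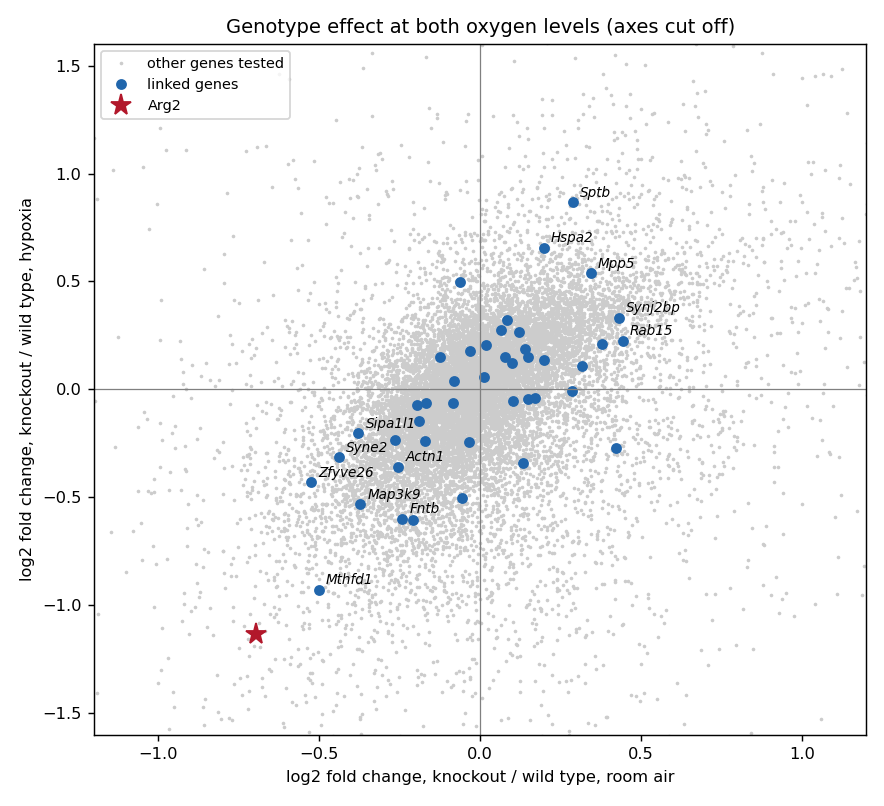
Log2 fold change of knockout over wild type in room air (x axis) and in hypoxia (y axis), with 1 point per gene tested; the 43 members are in blue, Arg2 is a star and points beyond the axes are not drawn. Mthfd1 at -0.50 and -0.93 lies nearest to Arg2 at -0.70 and -1.13, and the other members lie within the cloud of all genes.

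Distance from Arg2 was then compared with the share of genes called. For the averaged effect, 39.5% of the members were called, and of the 61 other genes within 6 Mb 15 were called (24.6%). Between 6 and 20 Mb the share was 26.2% of 103 genes, on the rest of chromosome 12 27.9% of 333 and on other chromosomes 28.7% of 15086. In hypoxia the shares were 30.2%, 23.0%, 31.1%, 22.8% and 23.1% in the same order. Within 3 Mb the averaged effect was called in 38.2% of 34 members and 19.0% of 21 other genes. Members and other genes together, the averaged effect was called in 32 of 104 genes within 6 Mb (30.8%) and in 17 of 55 within 3 Mb (30.9%).

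**Figure D4:**
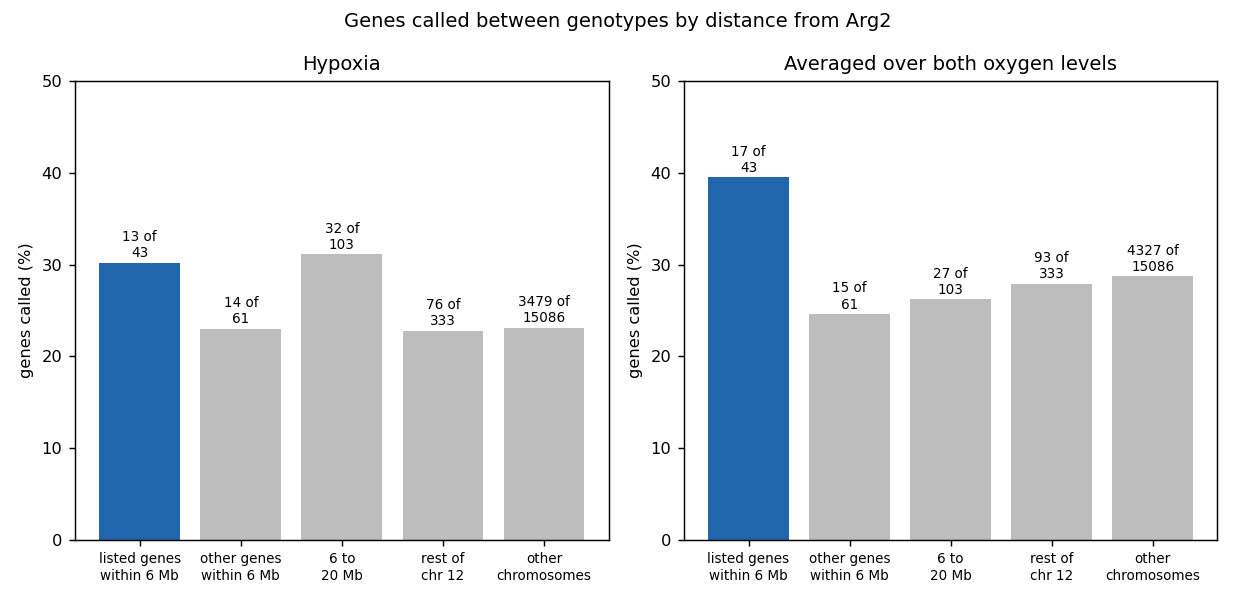
Percent of genes called between genotypes in hypoxia and for the averaged effect, for the listed genes, other genes within 6 Mb, genes at 6 to 20 Mb, the rest of chromosome 12 and other chromosomes, with the called and tested numbers above each bar. The listed genes are at 30.2% in hypoxia and 39.5% averaged, and the unlisted genes of the same stretch at 23.0% and 24.6%.

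The unlisted genes of the stretch with the smallest p for the averaged effect moved in both directions. Hif1a, which encodes the oxygen-regulated subunit of HIF-1 and lies 5.18 Mb before Arg2, had 107 to 128 CPM in wild type and 146 to 161 in knockout room air, and 116 to 140 against 156 to 184 in hypoxia. It did not overlap at either level (averaged log2 fold change 0.41 ± 0.06, adjusted p = 0.000325). Rhoj, an endothelial small GTPase, had 0.51 ± 0.08 (adjusted p = 0.000464) and did not overlap at either level. It had 72.2 to 107 CPM in wild type and 111 to 143 in knockout room air, and 96.7 to 129 against 164 to 168 in hypoxia. Hif1a and Rhoj were the 2 unlisted genes within 6 Mb without overlap at both levels. Lin52, a subunit of the DREAM complex, had 0.31 ± 0.07 (adjusted p = 0.00456). Snapc1, a factor for small nuclear RNA genes, had -0.37 ± 0.08 (adjusted p = 0.00387), Tmem30b, a flippase subunit, -0.48 ± 0.12 (adjusted p = 0.00599) and Ltbp2, a matrix protein of the fibrillin family, -0.59 ± 0.14 (adjusted p = 0.00608).

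The direction of the members' differences went with base composition. Across the 43 members the averaged effect and the GC content of the longest transcript had a Spearman coefficient of -0.43, and across 15627 genes with a GC value -0.41. The 10 members called lower had a median GC content of 52.8% (48.9% to 58.8%), and the 7 called higher one of 43.7% (39.1% to 55.3%). Rab15 at 55.3% and Hspa2 at 53.6% were the called higher members with high GC. After a GC correction within each sample, 3 members were called in room air (0.198% of all genes), 12 in hypoxia (20.9%) and 14 for the averaged effect (21.4%). Of those 14, 10 were among the 17 called without the correction, and Akap5, Zbtb25, Sptb and Vti1b were added. Mthfd1, Syne2, Zfyve26, Map3k9, Actn1, Fntb, Sipa1l1, Mpp5, Hspa2 and Rab15 kept their averaged call under this correction.

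**Figure D5:**
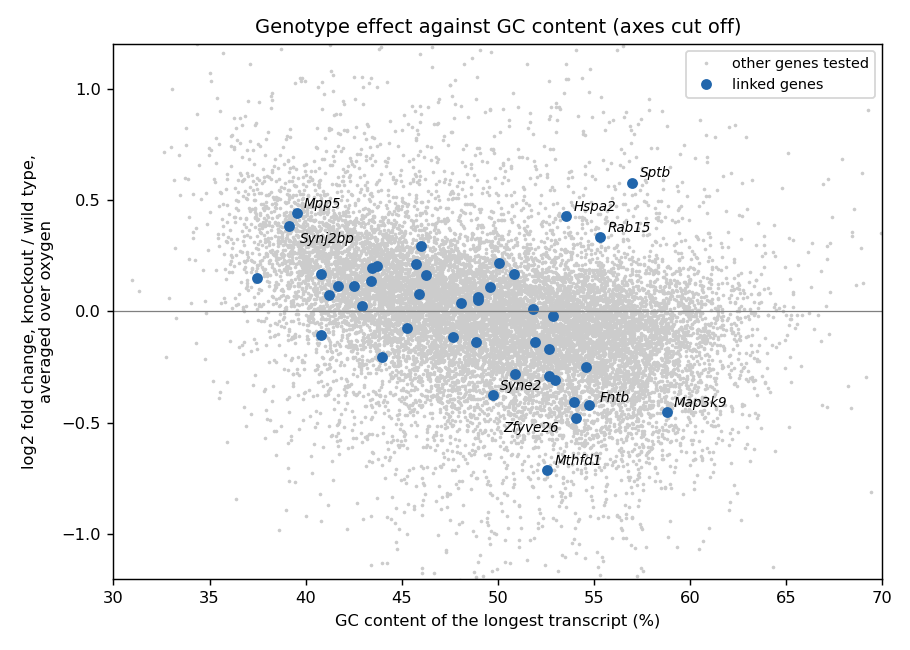
Averaged log2 fold change of knockout over wild type against the GC content of the longest transcript in percent, with 1 point per gene and the 43 members in blue; points beyond the axes are not drawn. Members of low GC such as Synj2bp (39.1%) and Mpp5 (39.5%) lie above 0 and most of those above 50% lie below it, with Rab15, Hspa2 and Sptb among the exceptions.

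The other 25 members were called in none of the genotype comparisons, and their averaged log2 fold changes ran from -0.41 for Smoc1 to 0.58 for Sptb. Gphn, which encodes the receptor anchor and molybdenum cofactor enzyme gephyrin, lies 0.45 Mb before Arg2. Its averaged value was 0.04, with an approximate 95% interval of -0.07 to 0.14, taken from the SE and a normal distribution. Fut8, the enzyme of core fucosylation, had 0.02 (-0.07 to 0.12), and Max, the partner of Myc, 0.11 (-0.03 to 0.25). For these genes the intervals leave out the size seen for Mthfd1. For Dpf3, at 4 to 79 counts, the interval was much wider, from -0.66 to 0.62.

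Sptb, which encodes the beta spectrin of red cells, had the highest log2 fold change of the members in hypoxia. It had 6.22, 8.98, 4.69 and 8.60 CPM in wild type hypoxia and 12.7, 19.5, 10.2 and 10.1 in the knockout, without overlap (0.87 ± 0.35, adjusted p = 0.0817). In room air the wild type samples ranged from 6.24 to 21.1 and enclosed the knockout range of 10.1 to 17.8. The summed level of 6 erythroid genes was 381 to 712 CPM in knockout hypoxia against 130 to 367 in wild type hypoxia, and 2 of the 6, Hba-a1 and Hbb-bt, were at 0 in all samples. The part of blood in the Sptb values was not tested.

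Of the further members, Eif2s1, the alpha subunit of the initiation factor eIF2, had an averaged value of 0.17 ± 0.09. Atp6v1d of the vacuolar proton pump had 0.11 ± 0.07, Rdh11, a retinal reductase, 0.16 ± 0.08, Pigh of GPI anchor synthesis 0.14 ± 0.08 and Slc39a9, a zinc transporter, -0.11 ± 0.08. Erh had 0.05 ± 0.15, Plekhh1 -0.17 ± 0.07 and Plek2, a pleckstrin, 0.22 ± 0.20. None of these passed the test, and their adjusted p ranged from 0.0656 for Plekhh1 to 0.831 for Erh.

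The remaining values are for members also not called between genotypes. Zbtb1, a transcription factor of lymphoid development, had 0.07 ± 0.06 and its neighbour Zbtb25 -0.11 ± 0.10. Zbtb25 had no overlap in hypoxia, at 6.26 to 7.61 CPM in wild type and 4.56 to 5.92 in the knockout, with an adjusted p of 0.0904. Akap5 had -0.21 ± 0.09, Ppp2r5e, a regulatory subunit of protein phosphatase 2A, -0.07 ± 0.09, Zfp36l1, which binds AU-rich mRNAs for decay, 0.06 ± 0.13, Rbm25, a splicing factor, 0.15 ± 0.09 and Wdr89 0.21 ± 0.18.

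Oxygen moved few of these genes, and Esr2 by far the most. Esr2 encodes estrogen receptor beta and lies 2.95 Mb before Arg2. In wild type it had 7.48, 8.65, 7.10 and 7.22 CPM in room air and 1.84, 1.09, 1.29 and 2.11 in hypoxia. In the knockout it had 8.07, 7.33, 7.35 and 6.56 CPM in room air and 0.856, 1.09, 1.81 and 0.874 in hypoxia. Every hypoxia sample was below every room air sample. Hypoxia lowered it by a log2 fold change of -2.27 ± 0.23 in wild type (adjusted p = 3.91e-06) and -2.72 ± 0.24 in the knockout (adjusted p = 3.6e-07), and both calls held in all 30 alternatives. The 2 effects differed by -0.45 ± 0.32, which did not pass the test (adjusted p = 0.585).

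The window before the Esr2 start is shown because its levels changed most with oxygen. It lies at chr12:76177260-76177509 on the minus strand (RefSeq, GRCm38.p6) with the same letters in capitals. It held 1 CCAAT box and no GGGCGG, the E-box CACGTG once and GGTCA in 2 places.
Esr2: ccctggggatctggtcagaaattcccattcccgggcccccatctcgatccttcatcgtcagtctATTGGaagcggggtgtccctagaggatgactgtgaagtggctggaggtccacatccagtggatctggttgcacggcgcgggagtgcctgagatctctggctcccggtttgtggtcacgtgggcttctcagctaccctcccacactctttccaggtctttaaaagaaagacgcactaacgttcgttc

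In wild type, 3 members were called between hypoxia and room air against 4.98% of all genes. Esr2 and Zbtb1 were lower (2.31%) and Mthfd1 was higher (2.67%). These comparisons use the same samples as the comparisons between genotypes. Zbtb1 had 39.6, 38.9, 44.0 and 41.1 CPM in room air and 33.8, 31.1, 35.4 and 33.1 in hypoxia, without overlap. Its log2 fold change was -0.29 ± 0.08 (adjusted p = 0.0453), a call kept in 6 of 30 alternatives. Without the samples with organ markers Esr2 alone was called (3.54% of all genes).

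In the knockout, 6 members were called between hypoxia and room air, against 17.0% of all genes. Esr2, Rad51b and Smoc1 were lower (9.1%) and Hspa2, Plek2 and Zfyve1 higher (7.94%). Rad51b, a gene of DNA repair that starts 0.14 Mb after Arg2, had 4.21, 3.88, 4.32 and 4.35 CPM in room air and 2.17, 1.84, 2.54 and 2.32 in hypoxia. These groups were well apart (-0.92 ± 0.21, adjusted p = 0.00406). In wild type its samples overlapped, at 2.04 to 3.72 and 1.87 to 3.37 CPM (-0.23 ± 0.21). The difference between the genotypes, -0.69 ± 0.29, did not pass the test over all genes (adjusted p = 0.292). Between genotypes, the room air samples of Rad51b did not overlap and the hypoxia samples did, and neither comparison was called.

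Smoc1, a secreted matrix protein that limits BMP signalling, was lower in knockout hypoxia by a log2 fold change of -0.81 ± 0.28 (adjusted p = 0.0491). Zfyve1, which marks sites of autophagosome formation on the endoplasmic reticulum, was higher by 0.27 ± 0.08 (adjusted p = 0.0321), Plek2 by 0.89 ± 0.28 (adjusted p = 0.0324) and Hspa2 by 0.47 ± 0.16 (adjusted p = 0.0454). These 4 calls each failed in 8 or more of 30 alternatives. Without the samples with organ markers, Esr2 alone was called in the knockout (8.89% of all genes).

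Because Mthfd1 stood first among the members, the other genes of folate and one-carbon metabolism were read beside it. Of 23 such genes, 6 were called for the averaged genotype effect (28.6% of all genes), 3 higher and 3 lower. Lower with Mthfd1 were Mthfd1l, the mitochondrial enzyme that releases formate (-0.75 ± 0.17, adjusted p = 0.00355), and Aldh1l1, which oxidises formyl-tetrahydrofolate (-0.27 ± 0.08, adjusted p = 0.0129). Higher were Slc25a32, the mitochondrial folate carrier (0.39 ± 0.09, adjusted p = 0.00334), Ggh, which trims folate polyglutamates (0.31 ± 0.08, adjusted p = 0.00711), and Mthfd2, a mitochondrial dehydrogenase (0.45 ± 0.15, adjusted p = 0.0299). In hypoxia Atic, of the last steps of purine synthesis, was also lower (-0.32 ± 0.08, adjusted p = 0.0111). The median log2 fold change of the list was -0.09 for the averaged effect, beside -0.01 over all genes, and in room air Mthfd1 was its only called gene.

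Genes on other chromosomes known to vary between laboratory mouse strains were read as well. Wdfy1 on chromosome 1 had an averaged log2 fold change of 0.32 ± 0.08 (adjusted p = 0.00513) and Glo1 on chromosome 17, the glyoxalase, 0.19 ± 0.06 (adjusted p = 0.0154). Casp4 on chromosome 9, an inflammatory caspase, was called lower in hypoxia (-0.49 ± 0.15, adjusted p = 0.0247) but not in the averaged effect (-0.23 ± 0.10, adjusted p = 0.109). Nnt on chromosome 13, the mitochondrial transhydrogenase, had 0.02 ± 0.07 (adjusted p = 0.880). Ifi202b had at most 0.031 CPM in any sample and was not tested. With 2 of 4 tested genes called for the averaged effect, beside 28.6% of all genes, so short a list shows only these values.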

How the data were processed

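Whole lung RNA-seq of 16 samples in 4 groups of 4 was used. The values are gene counts deposited by the authors, made with Trim Galore, TopHat2 and HTSeq on mm10 per the submitters' processing notes. Tool versions, annotation and strand setting were not given in the sources used here. Of 20 libraries, 4 pairs lettered A and B shared a sample number and were summed to 1 sample. Each pair's counts differed less (chi-square per degree of freedom 1.53 to 2.07) than the 26 other pairs within the room air groups did (3.89 to 22.16). Within the hypoxia groups, the 3 pairs with wild type hypoxia 4 had 135.34 to 143.07 and the 9 others 3.68 to 8.11. The 5 lines that name no gene were left out.

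Genes passing edgeR's filterByExpr (minimum count 10, minimum total 15), 15766 of 24062, were tested with edgeR 4.0.16 in R 4.3.3: TMM scaling, a robust quasi-likelihood fit of all 4 groups, two-sided tests and Benjamini-Hochberg adjustment over all genes. Counts of calls leave out 5 sex-linked genes. The CPM values use the same TMM scaling. Effects are log2 fold changes with an SE worked out from the F value of the test. Intervals take a normal distribution and can be narrower than the test implies. An averaged effect is the mean of the room air and hypoxia effects. The alternatives used DESeq2 1.42.0, limma 3.58.1, other scalings and filters, samples left out, the A or the B library alone and removal of each sample's GC trend. The fit was also run on simulated counts with 200 changed genes, drawn from its own estimate of spread. Those counts held no GC trend and no markers of other organs, so the run does not test the calls made here.

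Coordinates, lengths and GC contents are those of GENCODE vM21 (GRCm38), in which 22750 genes matched by symbol and 934 by an older name. Named in full are members called in a genotype comparison or without overlap at both oxygen levels, up to 6 called members per oxygen comparison, up to 6 unlisted neighbours, up to 6 one-carbon genes and all strain genes. The members and lists were chosen with earlier results of these data known. The labels do not say that the samples of a group are separate animals, so p-values measure the spread between samples.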

Additional observations from a re-analysis of the deposited data

Results flagged for a closer look

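Among 100 groups of 4 samples checked over 25 genes, 3 held a sample far from the other 3, where chance gives about 1 in 20 groups, or 5 here. Zfyve26 had 66.8 CPM in wild type hypoxia 4 against 52.9 to 54.5 CPM in the other samples of that group, and without this sample its hypoxia difference was not called. Exd2 had 35.5 CPM in knockout hypoxia 3 against 31.6 to 32.2. Plekhg3 had 39.7 CPM in wild type room air 2 against 30.6 to 31.6.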

How the results depend on the processing

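Of 30 alternatives, 27 were planned and 3 were chosen after seeing the data: the GC trend removed together with wild type room air 3, and leaving out the samples of low assignment or with organ markers. The count of members without overlap when wild type hypoxia 4 was left out was also added then. In room air 1 member was called (0.0761% of all genes). The count was 7 with DESeq2 (7.1%), 8 with limma voom (6.17%) and 3 with the GC trend removed (0.198%). It was 5 with wild type room air 3 left out as well as the GC trend, 6 with the A library alone and 3 with the B library alone. It was 2 with RLE size factors, 2 with upper quartile scaling and 0 by edgeR with the compared groups only. Without the 3 samples of low assignment it was 10, and without those with organ markers 0 (0.0%). The difference between oxygen levels gave 1 call with DESeq2 (3.07%). For oxygen in wild type, 1 was called with the compared groups only and 1 without the organ marker samples (3.54%). In the knockout 3 were called with the A library, 2 with the B library, 3 without the samples of low assignment and 1 without the organ marker samples (8.89%). The share of all genes called moved with the setting too, so a count given without it is no result about the members. The cause was not tested.

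Leaving out each sample in turn gave 0 to 11 calls in room air, with 11 without wild type room air 3 (13.8% of all genes) and 0 without knockout hypoxia 2. In hypoxia it gave 7 to 13, with 7 without wild type hypoxia 4 (17.7%) and 8 without knockout hypoxia 4 (13.2%). For the averaged effect it gave 13 to 20, with 20 without wild type room air 3 (34.3%). It gave 0 to 1 for the difference, 1 to 3 for oxygen in wild type and 2 to 6 in the knockout. With a replicate block, 5 members were called in room air (1.51% of all genes), 14 in hypoxia (24.2%) and 16 for the averaged effect (28.9%). The block gave 0 for the difference (0.996%), 2 for oxygen in wild type (5.22%) and 5 in the knockout (17.2%). Same-numbered samples correlated at -0.33 to 0.46, with 12 of 24 pairs above 0.1 and 4 of 16 samples closest to their own number, so the numbers were not taken to pair samples.

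Of single gene values, 1654 kept direction and side of the threshold, 231 lost and 65 gained a call and 11 changed sign. In room air Exd2 was -0.01 with the GC trend removed and -0.05 with wild type room air 3 also left out, and Med6 was -0.04 and -0.01. In hypoxia Dcaf5 was 0.04 and 0.03 under these settings. Numb in room air was 0.01 with the B library, 0.06 with the GC trend and wild type room air 3 removed and 0.02 without the samples of low assignment, with -0.07 to 0.02 when samples were left out in turn. Vti1b in room air was -0.04 without the organ marker samples. With 4 to 79 counts, Dpf3 had the least depth.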
